A study of Homo sapiens and Mus musculus with 21 samples.

Results

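The 32 genes described here carry glucose into the cell, break it down to pyruvate, and decide whether pyruvate becomes lactate or enters the mitochondrion. They were chosen by function from a list of symbols, with earlier results of these data known. Every one of the 32 was found among the 58336 human genes analysed and was among the 22981 tested. The list holds 2 glucose transporters, 2 hexokinases, 3 phosphofructokinase subunits, 3 PFKFB enzymes, TIGAR, 4 other enzymes of upper glycolysis, 6 of lower glycolysis, 2 lactate dehydrogenase subunits, 2 monocarboxylate transporters, 4 pyruvate dehydrogenase kinases and 3 pyruvate dehydrogenase subunits.

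Human colon carcinoma cells were grown for 28 days in the caecum wall of immunodeficient NSG mice, and RNA was taken from the frozen caecum. Human transcripts were given for 18 libraries in 6 groups of 3. SW480 and SW620 are lines from a primary colon tumour and from a lymph node metastasis of the same patient. SW480 Mock and SW620 Mock had received a mock lentivirus, and SW480 dnLEF1 and SW620 dnLEF1 a lentivirus with dominant negative LEF1, a form of this Wnt transcription factor that occupies its sites without activating them. SW620 LRP6KO cells had been edited by CRISPR at LRP6, which encodes a Wnt co-receptor, with a co-transfected eGFP-Puro plasmid, selected with puromycin and sorted on LRP6 protein, so they are a sorted population and no clone is named. SW620 Cas9 cells were mock transfected and sorted. Mice given PBS carried no human cells and have no human values. The design speaks of biological triplicates, but the labels do not tie each library to an animal, so p-values measure the spread between these samples.

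Glucose enters through GLUT transporters and is trapped by hexokinase. Phosphofructokinase commits it to glycolysis under the control of the PFKFB enzymes, which set the level of its activator fructose 2,6-bisphosphate. Lactate dehydrogenase turns pyruvate into lactate, which leaves through monocarboxylate transporters, while the pyruvate dehydrogenase kinases (PDK) hold pyruvate back from the mitochondrion. Many of these genes are known targets of the hypoxia-inducible factors, and PDK1 and the lactate transporter gene SLC16A1 have been described as targets of Wnt signalling in colon cancer cells.

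Values are TPM, RSEM's length-scaled transcript abundances, which sum to the same total in each library and can be compared between genes. They keep no sequencing depth, so no counting interval is given. A change is a difference of mean log2(TPM + 1), which understates the change of low genes, with its standard error (SE) from limma, and a gene is called at a Benjamini-Hochberg adjusted p under 0.05 over all genes tested. In bulk RNA, fewer cells of a type and less RNA per cell cannot be told apart. LEF1, in which introduced and native transcript cannot be told apart here, was 47.2 to 99.4 TPM in SW480 dnLEF1 against 5.09 to 14.8 in Mock, and 18.25 to 23.98 in SW620 dnLEF1 against 0.300 to 0.800 in Mock. LRP6 transcript was 17.4 to 21.1 TPM in LRP6KO and 10.9 to 17.8 in Cas9, and does not check an edit that was sorted on protein. Human genes above 0 numbered 24665 to 34709 per library. The 9 epithelial markers summed to 8740.8 to 21252.1 TPM, and 21 markers of fibroblasts, muscle, vessels, blood and liver to 50.6 to 151.7 TPM. These 21 were not uniformly absent. ACTA2 was 5.69 to 60.5 TPM and TAGLN 5.05 to 29.4 TPM, while haemoglobin HBB was 0 in every library of 4 of the 6 groups.

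Glycolysis transcripts made up 1.36% to 2.55% of all human TPM. GAPDH, which oxidises glyceraldehyde 3-phosphate and is a common reference gene, was the most abundant of the 32, with a mean over 18 libraries of 7782 TPM, and held 25.1% to 39.4% of the members' TPM. ENO1 (enolase, 2509 TPM), TPI1 (triosephosphate isomerase, 2420 TPM), ALDOA (aldolase A, 2115 TPM) and LDHA (lactate dehydrogenase A, 1578 TPM) followed. The 8 most abundant members, with PGK1, PKM and LDHB, held 82.2% to 89.5% of the members' TPM. Hexokinases and phosphofructokinase subunits, which gate the early steps, sat far lower. Means were 49.2 TPM for HK1, 104.7 for PFKP, 81.6 for PFKL and 64.4 for PFKM. Lower still, HK2 ranged from 2.18 to 21.2 TPM and the regulator PFKFB3 from 4.65 to 25.7 TPM. The lowest members were PFKFB2 at 1.14 to 3.05 TPM and PDK4 at 0.110 to 1.66 TPM.

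Does dnLEF1 alter the glycolysis genes of SW480 tumours? ALDOC, the aldolase better known from brain, rose in dnLEF1, while SLC16A1, which encodes the lactate and pyruvate transporter MCT1, and LDHB, the lactate dehydrogenase subunit that favours pyruvate, fell. These 3 of 32 members were called, 1 higher and 2 lower, against 2.23% of all genes tested (1.35% higher and 0.875% lower). Of the 32, 23 lay above and 9 below their Mock level, where 52.8% of all genes lay above 0, and the median change was 0.24 against 0.03 over all genes tested. At an unadjusted p under 0.05 there were 12 members, 9 higher and 3 lower, against 15% of all genes (9.25% higher and 5.71% lower). HK2, PFKFB3, PFKFB4, PGK1, ALDOA, PFKL and PDK1 were higher in each of the dnLEF1 libraries than in any Mock library without being called. With ALDOC and the 3 lower members PFKFB2, LDHB and SLC16A1, the groups did not overlap for 11 members, against 11.7% of all genes (7.17% higher and 4.57% lower).

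ALDOC (ENSG00000109107.13, chromosome 17, 28573115 to 28577264 in GRCh38) stood at 23.6, 39.4 and 18.6 TPM in Mock and at 99.6, 81.5 and 70.4 TPM in dnLEF1. Every dnLEF1 library lay well above every Mock library. The means were 27.2 ± 10.8 and 83.8 ± 14.7 TPM (SD, n = 3 each), a log2 change of 1.64 (SE 0.25, limma adjusted p 0.00218). Its main paralog ALDOA was 2181, 2307 and 1589 TPM in Mock and 2647, 2574 and 2474 in dnLEF1, higher in each dnLEF1 library but not called (log2 change 0.36, SE 0.13, adjusted p 0.205). ALDOC therefore remained a small part of the aldolase transcripts in both groups.

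SLC16A1 (ENSG00000155380.11, chromosome 1, 112911847 to 112957013) stood at 148, 142 and 93.9 TPM in Mock and at 55.0, 60.1 and 53.3 TPM in dnLEF1. The 3 dnLEF1 libraries were close together and below every Mock library, by 1.15 on the log2 scale of the means (SE 0.21, adjusted p 0.00964). SLC16A3 (ENSG00000141526.16, chromosome 17, 82228397 to 82261129) encodes MCT4, the lactate exporter of strongly glycolytic cells. It was 21.6, 25.6 and 23.6 TPM in Mock and 32.4, 23.4 and 39.95 TPM in dnLEF1, so that 1 dnLEF1 library lay within the Mock range (log2 change 0.39, SE 0.19, adjusted p 0.352). The log2 ratio of SLC16A3 to SLC16A1 within a library was -2.72, -2.43 and -1.95 in Mock and -0.75, -1.33 and -0.41 in dnLEF1.

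LDHB (ENSG00000111716.12, chromosome 12, 21635342 to 21757857) was 642, 488 and 614 TPM in Mock and 379, 454 and 398 TPM in dnLEF1. The groups did not overlap, and LDHB fell in dnLEF1 (log2 change -0.50, SE 0.12, adjusted p 0.0422). This call was lost in 10 of 12 alternative analyses, with adjusted p from 0.0148 to 0.562. LDHA, whose subunit favours lactate, was 1453, 1574 and 684 TPM in Mock and 1653, 1553 and 1416 TPM in dnLEF1, with overlapping groups (log2 change 0.41, SE 0.22, adjusted p 0.44). LDHA's change was 0.02 without SW480 Mock replicate 3, its lowest library.

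Promoter sequences of 3 of these genes are shown because ALDOC rose, LDHB fell and LDHA, the partner of LDHB, was not called. They are the 250 bases before the RefSeq transcript start in GRCh38.p14, written 5′ to 3′ on the gene's strand. Capitals mark the core of the hypoxia response element, ACGTG or GCGTG on either strand, and CACGTG where both strands carry it, which is also an E-box.
ALDOC, chr17:28576896-28577145, minus strand: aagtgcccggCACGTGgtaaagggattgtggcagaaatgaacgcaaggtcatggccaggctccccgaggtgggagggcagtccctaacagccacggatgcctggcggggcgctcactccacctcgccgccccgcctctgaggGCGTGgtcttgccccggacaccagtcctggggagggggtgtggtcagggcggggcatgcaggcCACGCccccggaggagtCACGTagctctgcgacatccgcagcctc
LDHA, chr11:18394313-18394562, plus strand: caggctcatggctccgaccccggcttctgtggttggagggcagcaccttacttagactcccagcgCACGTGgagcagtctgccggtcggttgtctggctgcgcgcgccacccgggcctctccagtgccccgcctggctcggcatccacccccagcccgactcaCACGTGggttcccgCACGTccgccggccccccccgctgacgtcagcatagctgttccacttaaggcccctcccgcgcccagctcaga
LDHB, chr12:21657843-21658092, minus strand: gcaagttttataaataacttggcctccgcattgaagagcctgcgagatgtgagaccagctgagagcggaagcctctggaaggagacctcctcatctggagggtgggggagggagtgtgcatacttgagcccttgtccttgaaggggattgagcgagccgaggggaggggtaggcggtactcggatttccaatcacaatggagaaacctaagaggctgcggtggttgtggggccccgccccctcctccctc

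A CACGTG counts on both strands, so ALDOC and LDHA each held 5 matches and LDHB 0. RefSeq gave 57 such windows for 29 of the 32 members, with none for SLC16A1, SLC2A3 and PFKFB2, and LDHA has 2 of them, of which the first is shown. The hypoxia core was present in 32 of the 57 windows (56.1%), in at least 1 window of 24 of the 29 members, and in 43.2% of all 35116 promoter windows. A TCF/LEF core, CTTTGAT or CTTTGAA on either strand, was in 0 of the 57 windows, which do not include SLC16A1, and in 5.94% of all windows. These matches describe the letters of a short window and say nothing of binding.

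**Figure D1:**
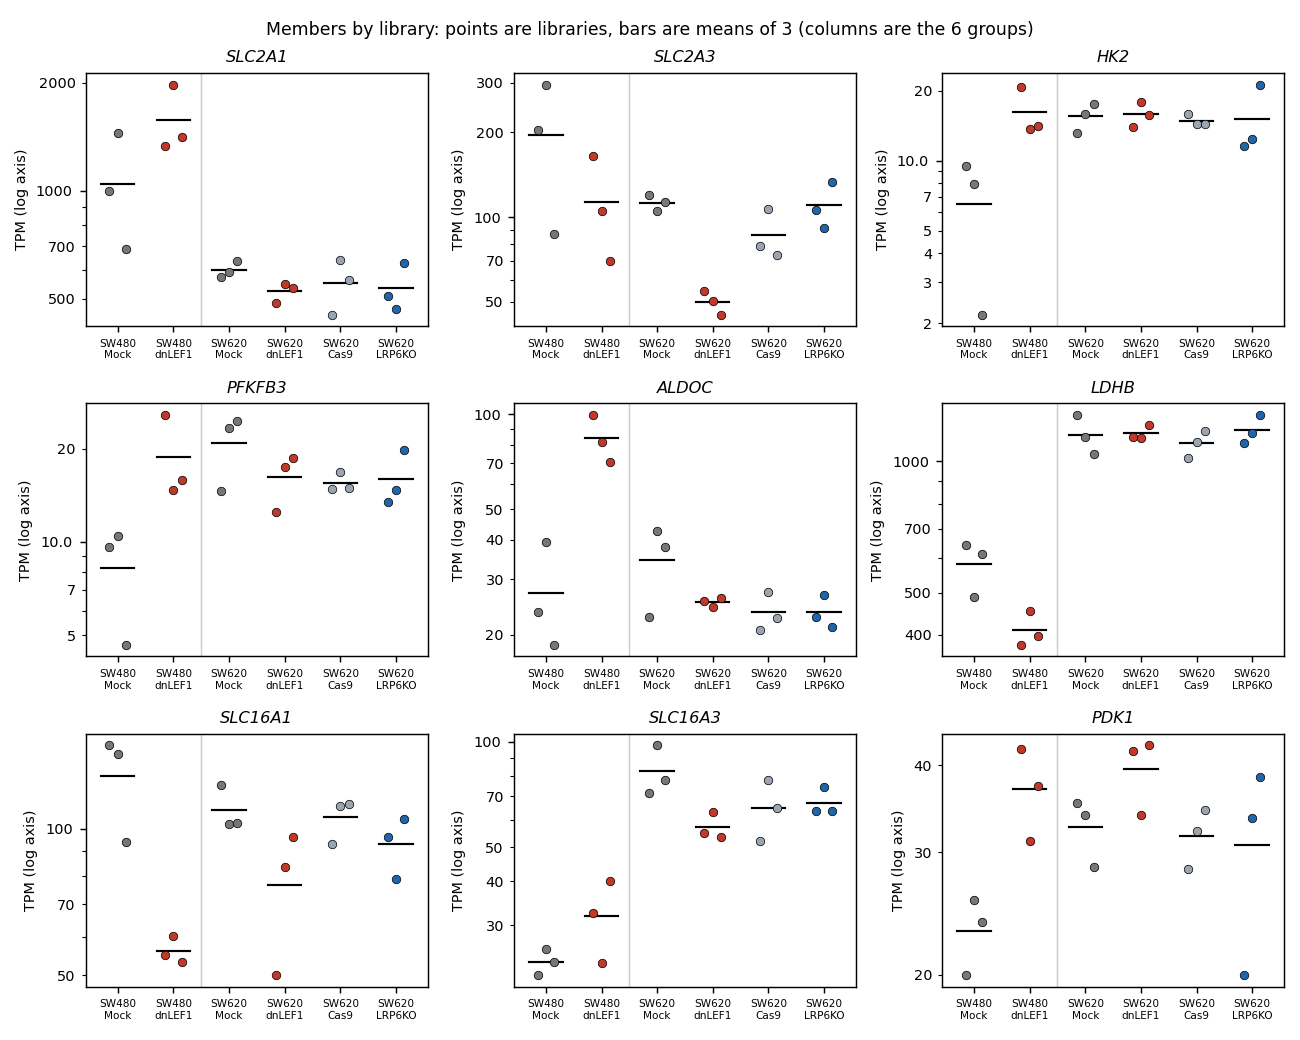
TPM on a log axis for 9 of the 32 members in each of the 18 libraries, with 1 point per library and a bar at the mean of 3. ALDOC is highest and SLC16A1 and LDHB lowest in the SW480 dnLEF1 columns among the SW480 libraries, and SLC2A3 is lowest in SW620 dnLEF1.

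The 2 glucose transporters had changes of opposite sign, and neither was called. SLC2A1, which encodes the widespread transporter GLUT1 (chromosome 1, 42925375 to 42959176), was 999, 1447 and 688 TPM in SW480 Mock and 1330, 1974 and 1410 TPM in dnLEF1. The groups overlapped through SW480 Mock replicate 2 (log2 change 0.63, SE 0.22, adjusted p 0.168), and without that library the change was 0.90 with an adjusted p of 0.0276, against 0.36 without Mock replicate 3. SLC2A3, which encodes the high-affinity transporter GLUT3 (chromosome 12, 7919230 to 7936275), was 204, 296 and 87.3 TPM in Mock and 165, 105 and 70.0 TPM in dnLEF1. It was not called (log2 change -0.70, SE 0.35, adjusted p 0.366), and without SW480 Mock replicate 3 the change was -1.19 with an adjusted p of 0.0432, against -0.32 without Mock replicate 2.

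Hexokinase 2, the inducible form that binds to mitochondria, was close to the threshold. HK2 (chromosome 2, 74833981 to 74893359) was 9.52, 7.93 and 2.18 TPM in Mock and 20.6, 13.7 and 14.1 TPM in dnLEF1. Each dnLEF1 library exceeded each Mock library (log2 change 1.34, SE 0.34, adjusted p 0.055). Leaving out 1 library at a time moved the change from 0.80, without SW480 Mock replicate 3, to 1.66, and HK2 was called without Mock replicate 1 (adjusted p 0.0288) and without Mock replicate 2 (adjusted p 0.0417). HK1, the housekeeping hexokinase, was 44.5, 47.0 and 30.97 TPM in Mock and 37.8, 45.6 and 41.0 TPM in dnLEF1 (log2 change 0.04, SE 0.18, adjusted p 0.966).

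The PFKFB enzymes differed among themselves. PFKFB3, whose kinase activity raises fructose 2,6-bisphosphate (chromosome 10, 6144934 to 6254644), was 9.66, 10.5 and 4.65 TPM in Mock and 25.7, 14.7 and 15.8 TPM in dnLEF1 (log2 change 1.12, SE 0.28, adjusted p 0.0524). It was called without SW480 Mock replicate 2 (adjusted p 0.0372). PFKFB4 was 15.9, 18 and 9.08 TPM in Mock and 37.3, 19.1 and 22.6 TPM in dnLEF1 (log2 change 0.83, SE 0.29, adjusted p 0.165). For both genes dnLEF1 replicate 1 was the highest library and Mock replicate 3 the lowest. PFKFB2, a low-abundance isoform, was 2.75, 2.68 and 3.05 TPM in Mock and 1.82, 1.79 and 1.31 TPM in dnLEF1, lower in each dnLEF1 library but not called (log2 change -0.54, SE 0.25, adjusted p 0.31).

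Most enzymes of the main chain showed small differences in SW480. PGK1 (phosphoglycerate kinase, the first ATP-forming step) was 803, 814 and 449.8 TPM in Mock and 1221, 972 and 886 TPM in dnLEF1 (log2 change 0.61, SE 0.20, adjusted p 0.152). TPI1 was 2236, 1993 and 1478 TPM in Mock and 2011, 3293 and 2432 TPM in dnLEF1, with overlapping groups (log2 change 0.43, SE 0.17, adjusted p 0.219), and was called without dnLEF1 replicate 1 (log2 change 0.59, adjusted p 0.0429). GAPDH was 7101, 7086 and 4617 TPM in Mock and 8984, 5309 and 6304 TPM in dnLEF1. Its spread within each group exceeded the difference between them (log2 change 0.12, SE 0.17, adjusted p 0.815). PKM, the pyruvate kinase gene, was 884, 863 and 542 TPM in Mock and 764, 1043 and 869 TPM in dnLEF1 (log2 change 0.25, SE 0.17, adjusted p 0.565). The remaining enzymes GPI, PFKM, PFKP, PFKL, PGAM1, ENO1 and ENO2 had changes from -0.38 for PFKP to 0.30 for PFKL, and none was called.

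At the pyruvate branch, PDK1 (chromosome 2, 172555373 to 172608669), which switches pyruvate dehydrogenase off by phosphorylation, was 20.0, 25.6 and 23.8 TPM in Mock and 42.2, 31.2 and 37.4 TPM in dnLEF1. All dnLEF1 libraries lay above the Mock libraries, without a call (log2 change 0.65, SE 0.21, adjusted p 0.126). PDK4 was at most 1.41 TPM in any SW480 library (0.160, 1.27 and 0.110 in Mock and 0.520, 0.770 and 1.41 in dnLEF1). PDK2, PDK3, the pyruvate dehydrogenase genes PDHA1, PDHB and DLAT, and TIGAR, a phosphatase that lowers fructose 2,6-bisphosphate, had overlapping groups and changes from -0.26 for DLAT to 0.34 for PDK2.

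Within a library, the ratio of 2 paralogs, taken on TPM + 1, depends little on how the library was scaled. Of 9 ratios, 7 separated SW480 dnLEF1 from Mock without overlap. The share of other gene pairs that separate was not computed, and these ratios reuse the member values given above. The mean log2 ratio was higher in dnLEF1 for SLC16A3 to SLC16A1 (-2.37 in Mock and -0.83 in dnLEF1), HK2 to HK1 (-2.62 and -1.33) and ALDOC to ALDOA (-6.22 and -4.93). It was lower for SLC2A3 to SLC2A1 (-2.51 and -3.84), LDHB to LDHA (-1.01 and -1.91), PFKP to PFKL (-0.33 and -1.01) and PFKFB4 to PFKFB3 (0.74 and 0.45). The exact permutation p was 0.10 for each of the 7, the smallest that 3 against 3 allows, and 0.28 after adjustment over 45 tests. Leaving out single libraries kept the sign of each of these ratio differences, with LDHB to LDHA the most variable (-1.24 to -0.47).

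**Figure D2:**
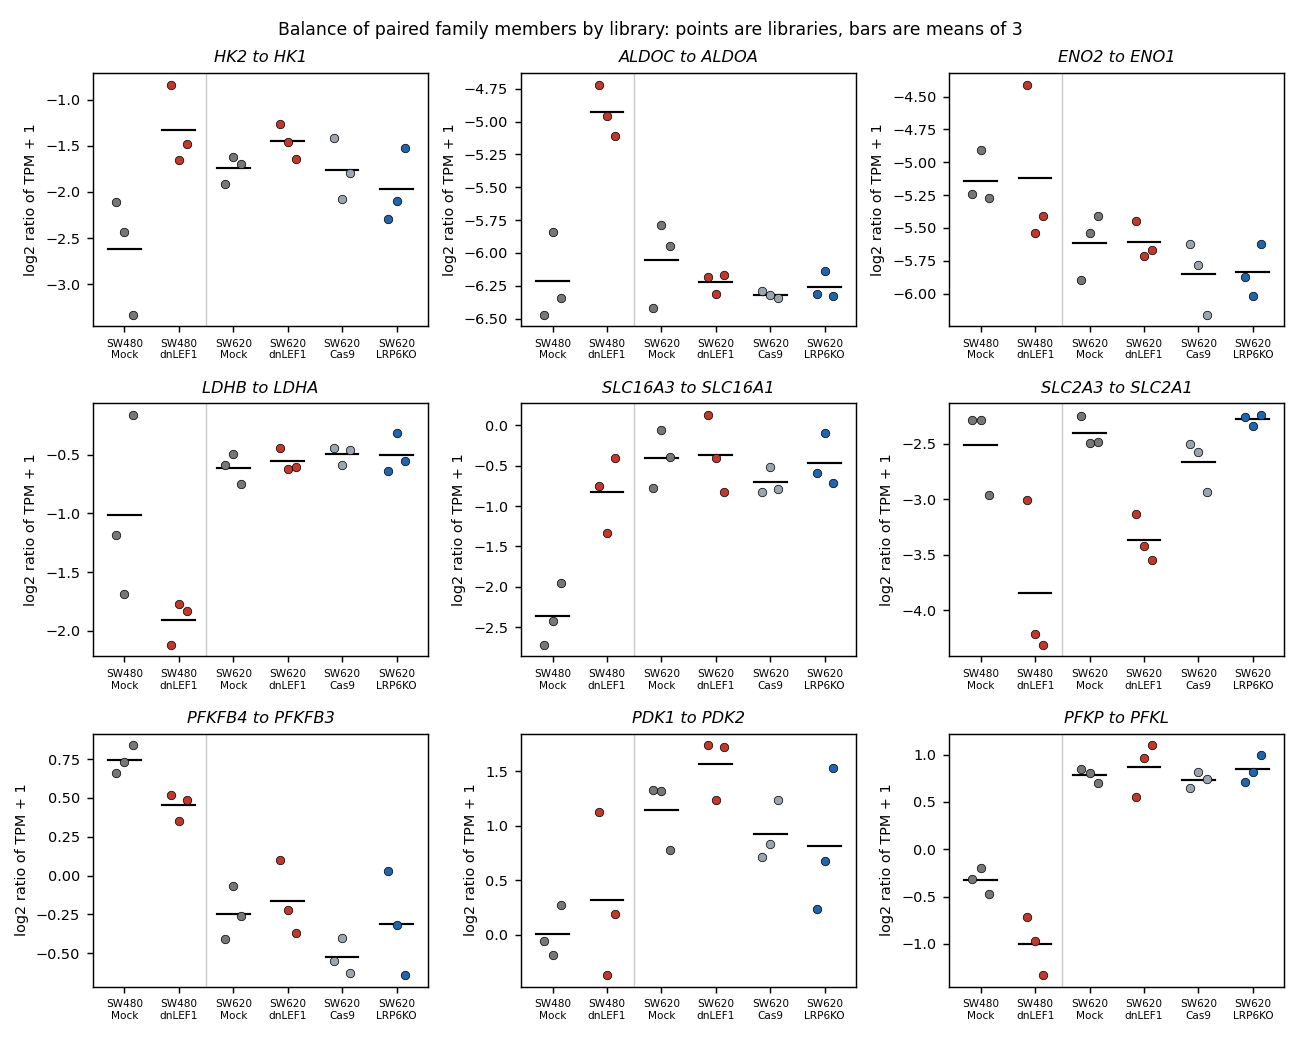
Log2 ratio of TPM + 1 between 2 paralogs in each library, with 1 point per library and a bar at the mean of 3. In SW480 the dnLEF1 and Mock points do not overlap for 7 of the 9 pairs, the exceptions being ENO2 to ENO1 and PDK1 to PDK2. The share of other gene pairs without overlap was not computed.

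Several values move with this comparison. SW480 Mock replicate 3 was the lowest of the 6 SW480 libraries for 20 of the 32 members and held the lowest share of glycolysis transcripts (1.36%, against 2.06% in each of the other Mock libraries and 2.00% to 2.33% in dnLEF1). Without it, the median change of the 32 members was 0.03 in place of 0.24. The members also varied more between SW480 libraries, with a median SD of 0.36 log2 units in Mock and 0.28 in dnLEF1, than between SW620 libraries (0.15 to 0.18). Over all genes tested the median SD was 0.41 in SW480 Mock, 0.35 in SW480 dnLEF1 and 0.23 to 0.30 in SW620, above that of the members in each group. Of 8 epithelial markers tested, KRT19 (log2 change -0.66, adjusted p 0.0147) and the intestinal factor CDX2 (-1.62, adjusted p 0.00696) fell in dnLEF1. Each of these calls was lost in 2 alternatives, and 3 of the 8 markers lay above 0. The 9 markers listed summed to 13319.6 to 18125.2 TPM against 17338.2 to 21252.1 in Mock. Their part in the member changes was not tested. The test pools the spread over groups. With the SW480 groups alone in the fit, 0 members were called, ALDOC at an adjusted p of 0.108 and SLC16A1 at 0.155, and 29 genes in all instead of 512.

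Among related genes outside the 32, TXNIP, which is induced by glucose and restrains its uptake, rose most clearly. TXNIP (chromosome 1, 145992435 to 145996600) was 68.7, 64.9 and 60.4 TPM in Mock and 199.6, 231 and 315 TPM in dnLEF1, with little spread in Mock and no overlap between the groups (log2 change 1.90, SE 0.17, adjusted p 1.78e-05). It was the one called gene of 23 regulators of glycolysis, against 2.23% of all genes tested (1.35% higher and 0.875% lower). BSG, the chaperone that brings MCT1 and MCT4 to the cell surface, rose by 0.57 on the log2 scale from 551, 504 and 426 TPM to 672, 817 and 709 TPM (adjusted p 0.0211, SE 0.12), a call lost in 6 of 12 alternatives. It was 1 of 11 further lactate and pyruvate genes tested. PCK2, mitochondrial phosphoenolpyruvate carboxykinase, fell with a log2 change of -0.68 (SE 0.14, adjusted p 0.0191, means of 44.9 and 27.7 TPM), a call lost in 3 of 12 alternatives. It was 1 of 17 gluconeogenesis and glycogen genes tested. None of 18 further transporters and isozymes and none of 20 genes of the pentose phosphate, hexosamine and serine branches was called. The median changes of the lists that hold TXNIP, BSG and PCK2 were -0.11, 0.04 and -0.03, against 0.03 over all genes.

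Among hypoxia-induced genes outside the 32, CA9 and ANKRD37 rose in SW480 dnLEF1. CA9, the pH-regulating carbonic anhydrase that is a standard hypoxia marker, was 73.9, 205 and 87.2 TPM in Mock and 451, 382 and 394 TPM in dnLEF1 (log2 change 1.88, SE 0.28, adjusted p 0.00171). ANKRD37 was 37.3, 60.5 and 52.7 TPM in Mock and 202, 101 and 125 TPM in dnLEF1 (log2 change 1.46, SE 0.23, adjusted p 0.00325). Both calls were lost with only the compared groups in the fit (adjusted p 0.117 for CA9 and 0.168 for ANKRD37). Of 17 genes tested in this list, 2 were called, both higher, against 2.23% of all genes, and 14 lay above 0, against 52.8%. Their median change was 0.67, against 0.03 over all genes. The 19 genes listed summed to 605.7 to 1067.5 TPM in Mock and 1294.8 to 2214.4 TPM in dnLEF1, where the highest sum was that of replicate 1, with NDRG1 at 339 TPM against 38.4 and 43.9 TPM in the other dnLEF1 libraries. The part of this movement in the glycolysis changes was not tested.

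**Figure D3:**
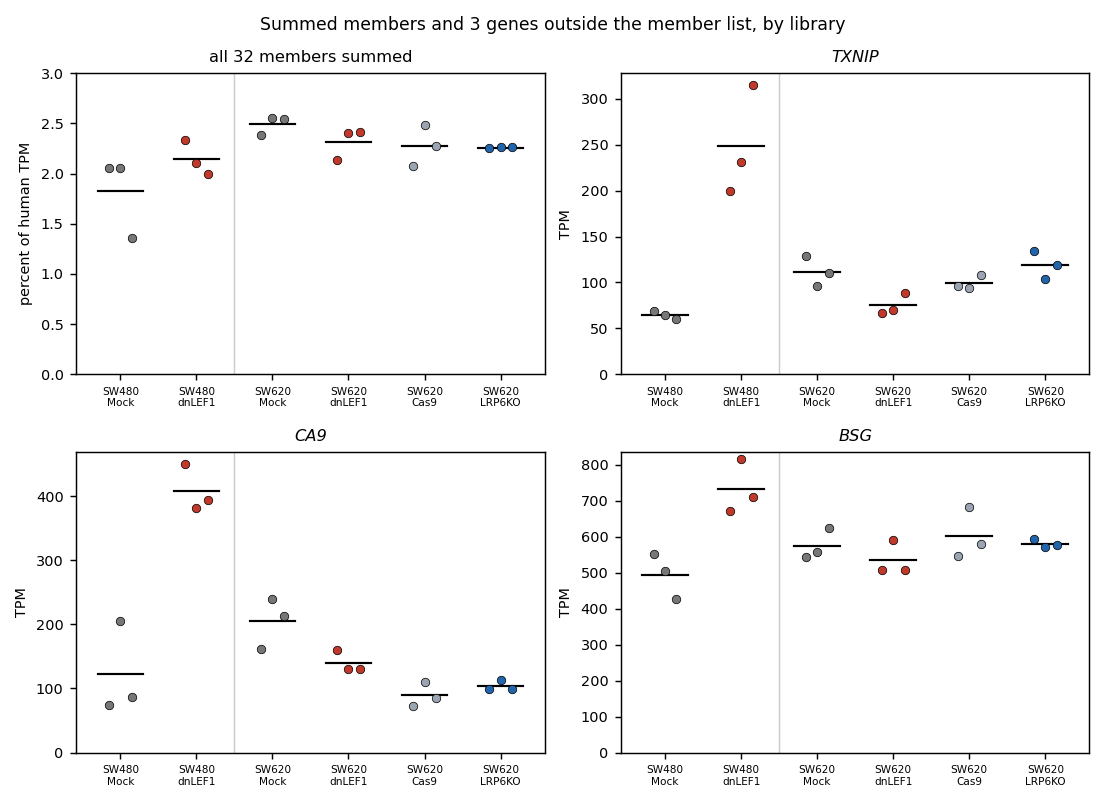
Share of human TPM held by the 32 members (percent) and TPM of TXNIP, CA9 and BSG in each library, with 1 point per library, a bar at the mean of 3 and axes from 0. SW480 dnLEF1 is highest for TXNIP (199.6 to 315 TPM) and CA9 (382 to 451 TPM), and the members' share is lowest in SW480 Mock replicate 3 (1.36%).

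In SW620, dnLEF1 gave no called member. The count was 0 of 32, against 0.165% of all genes (38 genes). At an unadjusted p under 0.05 there were 5 members, all lower (SLC2A3, PFKL, ENO1, SLC16A1 and SLC16A3), against 8.1% of all genes, of which 6.15% were lower. The dnLEF1 and Mock groups did not overlap for 9 members, all lower, against 16.4% of all genes that were lower without overlap. Of the 32, 25 lay below 0, against 64.3% of all genes, and the median change was -0.23, against -0.12. Median-ratio scaling moved the all-gene median by over 0.1, to 0.00, and the members' median to -0.06, with 19 of 32 members below 0 in place of 25.

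SLC2A3 was the member with the smallest p in SW620. It was 120.0, 105 and 113 TPM in Mock and 54.4, 50.3 and 45.0 TPM in dnLEF1. Both groups were tight and far apart, and the dnLEF1 libraries were lower than those of any other SW620 group. The change was -1.16 (SE 0.35, adjusted p 0.305) with the pooled spread, and SLC2A3 was called with array weights (adjusted p 0.0154) and with the SW620 groups alone (adjusted p 0.00909). Against SLC2A1, which was 576, 592 and 637 TPM in Mock and 485, 549.8 and 537 TPM in dnLEF1 (log2 change -0.20, SE 0.22, adjusted p 0.851), the log2 ratio went from -2.41 to -3.37.

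Both monocarboxylate transporters were lower without a call. SLC16A1 was 123, 102 and 103 TPM in SW620 Mock and 50.05, 83.5 and 96.0 TPM in dnLEF1 (log2 change -0.56, SE 0.21, adjusted p 0.491). Replicate 1 was by far the lowest dnLEF1 library, and without it the change was -0.28. SLC16A3 was 71.4, 97.9 and 78.0 TPM in Mock and 54.9, 63.2 and 53.5 TPM in dnLEF1 (log2 change -0.51, SE 0.19, adjusted p 0.465). The ratio between the 2 transporters overlapped between the groups.

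ENO1 was 3175, 3326 and 3086 TPM in SW620 Mock and 2163, 2654 and 2790 TPM in dnLEF1, lower in each library (log2 change -0.34, SE 0.13, adjusted p 0.487). Leaving out single libraries moved this change between -0.41 and -0.23. PDK1 was 35.3, 33.9 and 28.6 TPM in Mock and 42.0, 33.9 and 42.8 TPM in dnLEF1 (log2 change 0.27, SE 0.21, adjusted p 0.792). HK2 (log2 change 0.03), LDHB (0.02) and GAPDH (0.09) lay near 0 in SW620. The share of TPM from mitochondrial-chromosome genes was 11.4% to 13.8% in dnLEF1 and 7.21% to 8.41% in Mock, and the epithelial markers summed to 8740.8 to 10785.5 TPM against 15154.3 to 17070.2. Of the 17 hypoxia-induced genes tested, 0 were called, against 0.165% of all genes. Of these 17, 4 lay above 0, where 64.3% of all genes lay below 0. Their median change was -0.37, against -0.12 over all genes. The 19 listed summed to 448.6 to 503.4 TPM in dnLEF1 and 576.9 to 704.5 in Mock. The part of these in the member values was not tested.

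**Figure D4:**
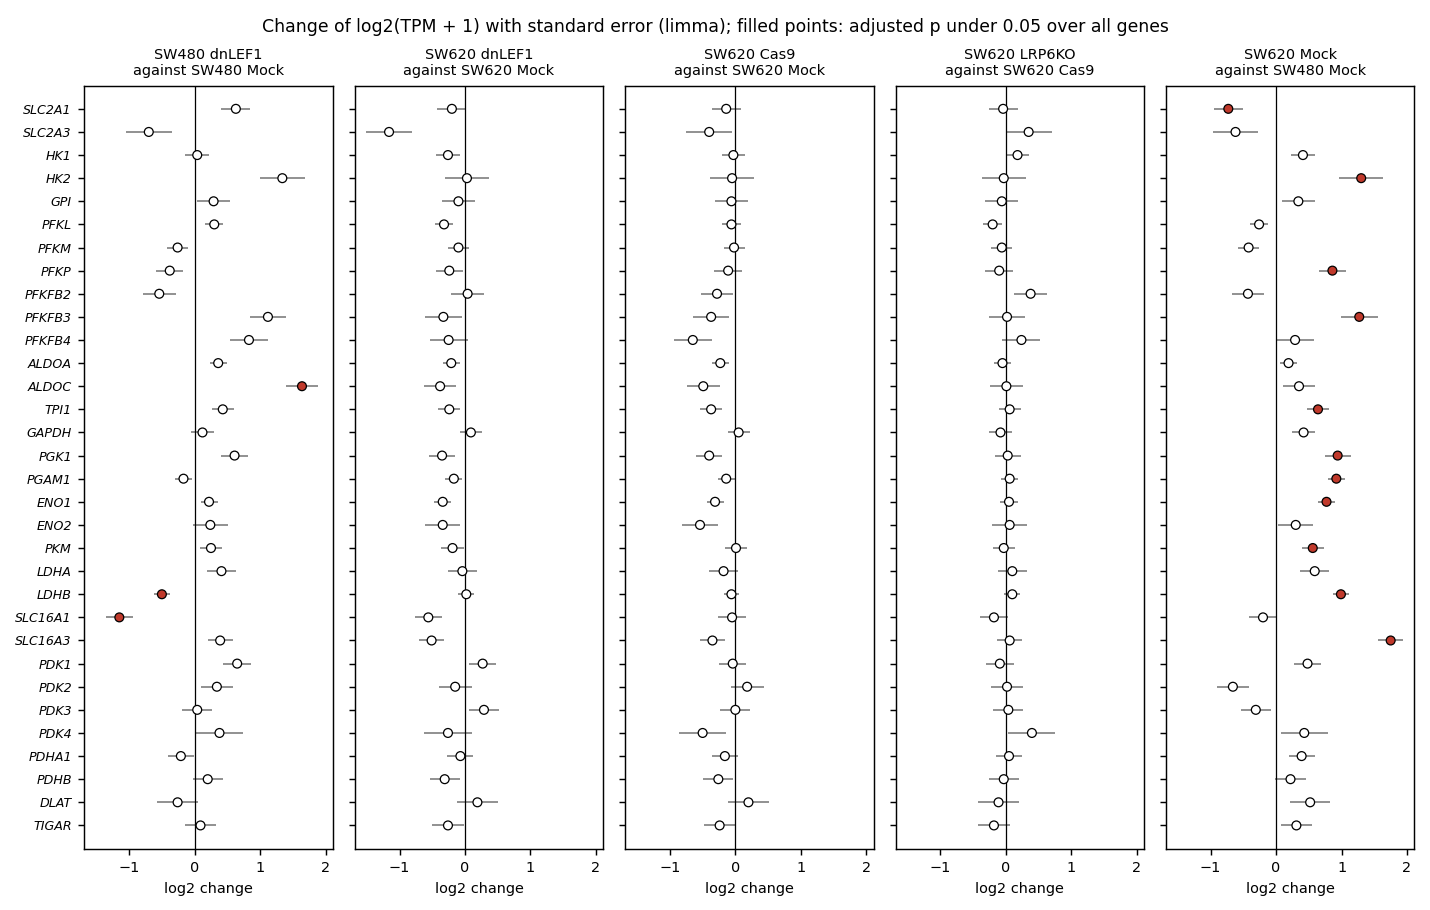
Log2 change with its standard error for each of the 32 members in 5 comparisons. Filled points are called, namely 3 members in SW480 dnLEF1, 0 in SW620 dnLEF1, Cas9 and LRP6KO, and 11 between the Mock tumours of the 2 lines.

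Did the lines differ in their response to dnLEF1? The test of the difference called 1 member, ALDOC, against 0.718% of all genes (0.54% lower in SW620). The dnLEF1 change of ALDOC was 1.64 in SW480 and -0.38 in SW620 (25.6, 24.6 and 26.1 TPM in SW620 dnLEF1 against 22.8, 42.7 and 38.0 in Mock), a difference of -2.02 (SE 0.35, adjusted p 0.014, and 0.0668 with only the compared groups in the fit). PFKFB3 followed with a difference of -1.45 (SE 0.40, adjusted p 0.112), with 12.5, 17.5 and 18.6 TPM in SW620 dnLEF1 against 14.7, 23.3 and 24.6 in Mock. SLC16A3 differed by -0.90 (SE 0.27, adjusted p 0.137). Neither passed the threshold. SLC16A1 was called in SW480 and not in SW620, but its difference between lines was 0.60 (SE 0.30, adjusted p 0.437), and for LDHB it was 0.51 (SE 0.17, adjusted p 0.195), so a difference in response was not shown for either gene. Of the 32 members, 23 had a difference below 0, against 62.5% of all genes, with a median of -0.45 against -0.17 over all genes, which became -0.18 and 0.03 under median-ratio scaling. Outside the members, the difference was called for TXNIP (-2.47, SE 0.24, adjusted p 7.41e-05), CA9 (-2.41, SE 0.39, adjusted p 0.00915) and ANKRD37 (-1.97, SE 0.33, adjusted p 0.00952, and 0.0513 under median-ratio scaling).

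Among the SW620 CRISPR groups, LRP6KO against Cas9 called 0 of 32 members with limma, against 0% of all genes, and 0 members had an unadjusted p under 0.05, against 3.33% of all genes. The share of glycolysis transcripts was 2.25%, 2.26% and 2.26% in LRP6KO and 2.08%, 2.48% and 2.27% in Cas9. The median change was 0.02, against 0.07 over all genes. Changes ranged from -0.20 for PFKL to 0.40 for PDK4, with SE of 0.12 to 0.36, and 9 of the 32 changed sign under median-ratio scaling.

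PFKFB2 was the 1 member whose groups did not overlap, against 9.67% of all genes (5.68% higher). It was 1.21, 1.32 and 1.45 TPM in Cas9 and 1.85, 2.74 and 1.62 TPM in LRP6KO, higher in each library but at a low level (log2 change 0.38, SE 0.25, unadjusted p 0.137). PFKL was 67.3, 83.8 and 73.7 TPM in Cas9 and 70.8, 63.5 and 60.5 TPM in LRP6KO (log2 change -0.20, SE 0.14). PDK4 was 0.160, 0.430 and 0.510 TPM in Cas9 and 1.66, 0.400 and 0.540 TPM in LRP6KO, and its change rested on LRP6KO replicate 1, which stood apart from the other 5 libraries. The transporters gave SLC2A1 a change of -0.04 (SE 0.22), SLC2A3 0.35 (SE 0.35), SLC16A1 -0.18 (SE 0.21) and SLC16A3 0.06 (SE 0.19). The log2 ratio of SLC2A3 to SLC2A1 was -2.26, -2.34 and -2.24 in LRP6KO, above the -2.50, -2.57 and -2.93 of Cas9 (exact permutation p 0.10, adjusted 0.28). In SW620 Mock this ratio was -2.25, -2.49 and -2.48, which overlapped LRP6KO. Cas9 lay below Mock without overlap as well (exact permutation p 0.10, adjusted 0.28). The part of the LRP6 edit in this ratio was not tested.

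The 2 SW620 controls showed what differs without dnLEF1 or loss of LRP6. Cas9 against Mock shares the Mock libraries with the dnLEF1 comparison. It called 0 of 32 members with limma, against 0% of all genes, and 3 members had an unadjusted p under 0.05, all lower (ENO1, PFKFB4 and TPI1), against 5.02% of all genes (2.62% lower). Of the 32, 27 lay below 0, against 53.9% of all genes. The groups did not overlap for 6 members, all lower, against 7.81% of all genes lower without overlap. ENO1 was 2260, 2858 and 2664 TPM in Cas9, below the 3086 to 3326 TPM of Mock (log2 change -0.31, SE 0.13, adjusted p 0.942). TPI1 was 2028, 2507 and 2276 TPM in Cas9 and 2747, 3249 and 2804 TPM in Mock (log2 change -0.37, SE 0.17, adjusted p 0.954). PFKFB4 was 9.81, 12.5 and 9.26 TPM in Cas9 and 10.8, 22.2 and 20.4 TPM in Mock (log2 change -0.65, SE 0.29, adjusted p 0.944). Mitochondrial-chromosome genes held 9.54% to 13.7% of TPM in Cas9 and 7.21% to 8.41% in Mock. Epithelial markers summed to 11034.0 to 14335.3 TPM in Cas9 and 15154.3 to 17070.2 in Mock, and the hypoxia-induced genes to 338.2 to 451.1 TPM and 576.9 to 704.5. These ranges did not overlap, and their part in the member values was not tested. For ENO1 and TPI1 the values lie beside those of SW620 dnLEF1, where the changes were -0.34 and -0.24.

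The Mock tumours of the 2 lines differed in more members than any other comparison tested. SW620 was higher than SW480 in 10 members (HK2, PFKP, PFKFB3, TPI1, PGK1, PGAM1, ENO1, PKM, LDHB and SLC16A3) and lower in 1 (SLC2A1). The 11 of 32 stand against 23.9% of all genes, and the 10 and 1 against 10.9% higher and 12.9% lower. Of the 32, 24 lay above 0, against 41.2% of all genes, and the median change was 0.40, against -0.14. For tested genes with a mean of at least 5 TPM the median was 0.01. Without SW480 Mock replicate 3 the median was 0.21 for the members and -0.23 over all genes. Line and any handling by line cannot be told apart here.

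Of the 4 lactate genes, SLC16A3 and LDHB were called. SLC16A3 was 71.4, 97.9 and 78.0 TPM in SW620 Mock, far above the 21.6 to 25.6 TPM of SW480 Mock (log2 change 1.75, SE 0.19, adjusted p 3.76e-06). SLC16A1 overlapped between the lines, at 102 to 123 TPM and 93.9 to 148 TPM (log2 change -0.20, SE 0.21, adjusted p 0.54), so that the log2 ratio of SLC16A3 to SLC16A1 was -0.41 in SW620 and -2.37 in SW480. LDHB was 1278, 1134 and 1039 TPM in SW620 Mock against 488 to 642 TPM in SW480 Mock (log2 change 0.99, SE 0.12, adjusted p 1.38e-05). LDHA was 1930, 1592 and 1745 TPM in SW620 Mock and 684 to 1574 TPM in SW480 Mock, without overlap and without a call (log2 change 0.59, SE 0.22, adjusted p 0.0689).

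Of the 6 lower glycolysis enzymes, PGK1, PGAM1, ENO1 and PKM were called higher in SW620, and GAPDH and ENO2 were not called. PGK1 was 1215, 1403 and 1212 TPM, above the 449.8 to 814 TPM of SW480 (log2 change 0.94, SE 0.20, adjusted p 0.00283). PGAM1, phosphoglycerate mutase, was 642, 669 and 664 TPM against 413, 355 and 287 TPM (log2 change 0.92, SE 0.13, adjusted p 6.43e-05). ENO1, the next enzyme, was 3086 to 3326 TPM against 1536 to 2184 TPM (log2 change 0.77, SE 0.13, adjusted p 0.000343). PKM changed by 0.56 (SE 0.17, adjusted p 0.0237). The PKM call was lost in 5 alternatives, among them the fit without SW480 Mock replicate 3 (log2 change 0.33, adjusted p 0.113). GAPDH was 7536, 8242 and 8901 TPM in SW620 Mock and was not called (log2 change 0.42, SE 0.17, adjusted p 0.1).

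At the entry steps the lines differed in both directions. SLC2A1 was 576, 592 and 637 TPM in SW620 Mock against 688 to 1447 TPM in SW480 Mock (log2 change -0.73, SE 0.22, adjusted p 0.0219). This call was lost in 4 alternatives, among them the fit without SW480 Mock replicate 2 (log2 change -0.46, adjusted p 0.121). HK2 was 13.2, 15.9 and 17.5 TPM against 2.18 to 9.52 TPM (log2 change 1.30, SE 0.34, adjusted p 0.0108), and its change was 0.76 without SW480 Mock replicate 3. The HK2 call was lost with only the compared groups in the fit (adjusted p 0.0737). PFKFB3 was higher by 1.27 (SE 0.28, adjusted p 0.00335). PFKP, the platelet-type phosphofructokinase subunit, was 126, 139.5 and 139 TPM against 55.3 to 89.8 TPM (log2 change 0.86, SE 0.21, adjusted p 0.00653). The liver-type subunit PFKL did not show a called difference (log2 change -0.26, SE 0.14, adjusted p 0.218), and the log2 ratio of PFKP to PFKL was 0.79 in SW620 and -0.33 in SW480. PDK1 and PDK2 were not called, and their log2 ratio was 1.15 in SW620 against 0.01 in SW480 (exact permutation p 0.10, adjusted 0.28).

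Some members share sequence or position with other transcripts. LDHB had 3 named pseudogenes whose summed TPM reached 8.41% of its own, HK2 had 1 that reached 12.8%, and the 62 named GAPDH pseudogenes together reached 0.582%. An antisense transcript inside GAPDH, AC006064.4, ranged from 1.18 to 1134 TPM, and CSNK1D on the opposite strand overlaps SLC16A3 (mean 108.5 TPM). Counting is not stated to use strand, so reads of such pairs may not be separable.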

How the data were processed

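Human transcripts of 18 xenograft libraries were analysed as the TPM values that the authors deposited. Per the submitters' processing notes, Trimmomatic 0.35, Bowtie 1.2 and RSEM 1.2.31 were used with hg38 and mm10. How human and mouse reads were separated is not given in the sources used here. TPM keeps no depth. Mouse values were not used here. Of 58381 identifiers, 45 second copies of pseudoautosomal genes (0 TPM) were left out and 58216 were joined to symbols of GENCODE release 29.

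The 22981 genes that reached 1 TPM in 3 or more libraries were fitted with limma 3.58.1 (R 4.3.3, intensity trend, a mean per group, all 6 groups) on log2(TPM + 1), with Benjamini-Hochberg adjustment within each of 6 comparisons. The fit was tested on simulated data. Paralog ratios were compared by exact two-sided permutation tests. Genes were named by rule: members called, the 3 with the smallest p per comparison, a set of defining members, and called genes of the other lists. The members and lists were chosen with earlier results of these data known. The alternatives were a pseudocount of 0.1, no filter, median-ratio scaling, array weights, only the compared groups, a replicate block, and single libraries left out. Those for paralog ratios and summed TPM were added after seeing the data. Python 3.11.15 was used around the fits.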

Additional observations from a re-analysis of the deposited data

Results flagged for a closer look

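The dnLEF1 change differed between SW480 and SW620 in the test of the difference itself for 4 genes, 1 of them a member. ALDOC had a difference of -2.02 (SW620 minus SW480), TXNIP of -2.47, CA9 of -2.41 and ANKRD37 of -1.97 (limma adjusted p 0.014, 7.41e-05, 0.00915 and 0.00952). The call was lost for ALDOC with only the compared groups in the fit (adjusted p 0.0668) and for ANKRD37 under median-ratio scaling (difference -1.70, adjusted p 0.0513), and was kept for TXNIP and CA9 in each of 18 alternatives. Each gene was higher with dnLEF1 in every SW480 library than in any SW480 Mock library. In SW620 the means with dnLEF1 lay below those of Mock, at 25.4 against 34.5 TPM for ALDOC, 75.2 against 112 TPM for TXNIP, 140 against 205 TPM for CA9 and 27.4 against 39.5 TPM for ANKRD37, and none of these was called.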

How the results depend on the processing

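Alternatives were followed for 107 changes, chosen as those called, those with the smallest p and a fixed set. None of these reversed its direction: of 1342 values, 1201 kept direction and call, 130 lost the call and 11 gained it. Other changes near 0 did change sign, among them HK1 and GAPDH in SW480 dnLEF1 without SW480 Mock replicate 3. In SW480 dnLEF1, 0 members were called with only the compared groups in the fit (29 genes in all, against 512), and 2 to 6 when single libraries were left out, with 6 without SW480 Mock replicate 2. In SW620 dnLEF1, 1 member (SLC2A3) was called with array weights (394 genes, against 38) and 1 with only the compared groups (120 genes), and 0 to 0 with single libraries left out. In the difference between lines, 0 members were called with only the compared groups (43 genes, against 165), and 1 to 2 with single libraries left out, 2 without SW480 dnLEF1 replicate 1. Between the lines 9 to 13 members were called with single libraries left out. LRP6KO and Cas9 gave 0 members under each alternative, while all genes called reached 10 and 101. The cause of these differences was not tested.

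Replicate numbers are shared by the groups, and the labels do not say what a number stands for. Deviations of same-numbered libraries correlated at -0.168 to 0.134, within the -0.237 to 0.275 of differently numbered ones. With 3 libraries per group, these correlations cannot show whether a number marks anything shared. With a replicate block, 2, 0, 0, 0, 12 and 1 members were called in SW480 dnLEF1, SW620 dnLEF1, LRP6KO, Cas9, the lines and the difference. Median-ratio scaling gave 190 higher and 220 lower genes in SW480 dnLEF1 (311 and 201 before), 21 and 17 in SW620 dnLEF1 (13 and 25) and 53 and 54 in the difference (41 and 124). TPM holds no depth, so low members such as PDK4 have no counting limit.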

Other observations

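Branches that leave glycolysis also differed between the Mock tumours of the 2 lines, where 23.9% of all genes were called. SW620 was lower for PHGDH, the entry enzyme of serine synthesis (17.1 against 64.0 TPM, log2 change -1.84, SE 0.22, limma adjusted p 1.19e-05), and higher for PSAT1, the next enzyme (121 against 71.8 TPM, log2 change 0.80, SE 0.22, adjusted p 0.0152, lost in 4 of 12 alternatives and 0.53 without SW480 Mock replicate 3), and for SHMT2, which makes glycine from serine in mitochondria (317 against 187 TPM, log2 change 0.79, SE 0.19, adjusted p 0.00516). Of 20 genes of the pentose phosphate, hexosamine and serine branches, 3 were higher and 3 lower. SLC5A1, the sodium-coupled glucose transporter of the gut, was 15.4 TPM in SW480 Mock and 0.0933 TPM in SW620 Mock (log2 change -3.87, SE 0.24, adjusted p 8.81e-09). SLC2A6, SLC2A8 and SLC2A10 were also lower in SW620, with log2 changes of -1.45, -1.32 and -1.90, while the hexokinase-like gene HKDC1 (5.89 TPM in SW480 Mock and 11.9 in SW620 Mock) and the muscle enolase gene ENO3 (42.9 and 76.2 TPM) were higher. Of 18 further transporters and isozymes tested, 2 were higher and 4 lower.

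Hypoxia-related genes did not differ in 1 direction between the lines. EPAS1, which encodes HIF-2 alpha, was 19.1 TPM in SW480 Mock and 0.563 TPM in SW620 Mock (log2 change -3.75, SE 0.35, adjusted p 6.29e-07). ANGPTL4 (log2 change -2.85), P4HA2 (-2.37) and ADM (-2.35) were lower in SW620, while VEGFA (1.46) and P4HA1 (1.29) were higher. CA9 was also called higher (205.1 TPM in SW620 Mock against 122.0 TPM in SW480 Mock), a call lost in 6 alternatives. Of 17 hypoxia-induced genes tested, which do not include EPAS1, 3 were higher and 6 lower, against 10.9% higher and 12.9% lower of all genes.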
